A study of Mus musculus with 8 samples.

Results

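Glutathione S-transferases were followed in whole testes of mice given the alkylating drug busulfan. The members were taken by name. They were all transcripts in the count table whose mouse gene symbol is gst, a class letter and a number, or mgst and a number; the files give symbols in lower case (gstt4, gstm1 and so on). This rule found 17 transcripts of 12 genes among 2783 transcripts of 2243 symbols. GENCODE release 21, the mouse gene annotation used here, lists 25 protein-coding genes of these names.

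Poly(A) RNA of the testis was sequenced directly on Nanopore pores. A cDNA strand was made on each RNA in the preparation, but the pore reads the RNA strand, so that a read stands for 1 RNA molecule and its poly(A) tail can be measured from the pore current. The adult male mice carried Tent5c wt/wt (wt) or Tent5c dcat/dcat (dcat), in which both copies encode a catalytically inactive TENT5C, a poly(A) polymerase. The dcat allele was carried in the germline, and is for that reason present in germ cells and somatic cells alike. Mice received busulfan at 20 mg/kg or its vehicle once, and testes were taken 4 weeks later, with 2 mice in each of the 4 groups (wt vehicle, wt busulfan, dcat vehicle, dcat busulfan). The study gave busulfan to deplete germ cells and so enrich somatic cells.

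Glutathione S-transferases join the tripeptide glutathione to reactive electrophiles, which makes them soluble and ready for export. Cytosolic members fall into classes named alpha, mu, pi, theta and omega, and the microsomal members are a separate family of membrane proteins. Busulfan is itself cleared by glutathione conjugation, for which alpha class enzymes of the liver are the main catalysts. In the testis, Sertoli and Leydig cells are rich in these enzymes, and germ cells have members of their own.

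The libraries held 29574 to 129074 reads on the transcripts kept in the count table, of which 194 to 2226 came from the members. Members made up 0.719% ± 0.107 of these kept reads (SD, n = 2) in wt vehicle and 1.80% ± 0.183 in wt busulfan. They made up 0.646% ± 0.0146 in dcat vehicle and 1.86% ± 0.0799 in dcat busulfan. The share was thus higher in each busulfan library than in any vehicle library. In whole tissue, fewer cells of a type and less RNA per cell cannot be told apart. The labelled tissue held testis markers: the 11 late spermatid markers listed, all read, summed to 91262 to 120508 RPM (reads scaled to library size by TMM) in vehicle libraries, to 7721 and 13444 in wt busulfan and to 21002 and 39960 in dcat busulfan. Leydig cell markers, of which 7 of 9 were read, stood between 3714 and 6471 RPM in vehicle libraries. They stood at 35035 and 49672 in wt busulfan and at 24904 and 21996 in dcat busulfan. The Leydig list includes Insl3, which the study reported as lower in dcat than in wt testes after busulfan. The part of Insl3 in the Leydig difference was not tested. Sertoli cell markers, of which 8 of 12 were read, stood between 2412 and 4414 RPM in vehicle libraries. They stood at 24041 and 29807 in wt busulfan and at 23780 and 17594 in dcat busulfan. For late spermatid, Leydig and Sertoli markers alike, the genotypes did not overlap after busulfan. Macrophage markers, of which 3 of 8 were read, stood between 63.9 and 232 RPM in vehicle libraries, at 824 and 1167 in wt busulfan and at 867 and 739 in dcat busulfan. No marker of these lists that was read stood at 0 in any group. The part of these shifts in the values below was not tested.

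The sequences before the start of 4 members are shown because these genes moved in opposite directions: Gstt4 and Gstm5 fell after busulfan, and Gstm1 and Gsta3 rose. They are RefSeq promoters on GRCm38.p6, written 5′ to 3′ on the strand of the gene, and end before the first annotated exon. Capitals mark a match to TGACNNNGC, the core of the antioxidant response element bound by the stress regulator NRF2.
Gstt4, chr10:75822544-75822793, minus strand: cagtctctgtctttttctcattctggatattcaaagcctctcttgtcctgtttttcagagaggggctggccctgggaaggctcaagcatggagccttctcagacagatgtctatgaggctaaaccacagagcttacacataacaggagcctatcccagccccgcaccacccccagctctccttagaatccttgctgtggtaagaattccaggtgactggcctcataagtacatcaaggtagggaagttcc
Gstm1, chr3:108017974-108018223, minus strand: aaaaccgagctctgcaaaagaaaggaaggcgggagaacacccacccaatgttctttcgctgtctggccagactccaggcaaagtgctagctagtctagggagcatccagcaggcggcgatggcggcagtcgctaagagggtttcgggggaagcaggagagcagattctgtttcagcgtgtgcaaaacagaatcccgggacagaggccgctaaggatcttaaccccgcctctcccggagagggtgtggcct
Gsta3, chr1:21240335-21240584, plus strand: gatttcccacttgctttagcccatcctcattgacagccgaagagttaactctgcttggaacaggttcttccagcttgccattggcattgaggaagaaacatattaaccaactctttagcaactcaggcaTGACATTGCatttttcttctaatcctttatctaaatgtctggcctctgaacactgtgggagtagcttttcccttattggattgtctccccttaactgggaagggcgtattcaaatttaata
Gstm5, chr3:107895604-107895820, plus strand: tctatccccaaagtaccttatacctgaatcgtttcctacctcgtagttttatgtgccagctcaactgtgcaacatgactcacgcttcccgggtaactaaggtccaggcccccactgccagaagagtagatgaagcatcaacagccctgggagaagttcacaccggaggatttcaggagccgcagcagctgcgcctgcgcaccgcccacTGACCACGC
Both strands of the 250 bases before each RefSeq start were searched. This core was found before 4 of the 11 member genes with a promoter in the table (Gsta3, Gstm5, Gstm7 and Mgst1), and before 11.5% of all 27025 genes. The matches of Gstm7 and Mgst1 lie before a RefSeq start but past the annotated start of the transcript read here. Before that annotated start, the core was present in a member that fell (Gstm5) and in a member that rose (Gsta3). The letters of the TATA box, TATAAA, were found before 3 of the 11 (Gsta2, Gstm1 and Gstm7) and before 14.3% of all genes. The match of Gstm1 lies in a RefSeq promoter that overlaps its first annotated exon and is not printed here. Neither the cAMP response element TGACGTCA nor the steroidogenic factor 1 site CAAGGTCA was found before any of the 11, against 1.77% and 1.51% of all genes.

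Members moved in both directions after busulfan, as transcripts did at large. In wt testes, 9 of the 17 transcripts rose and 5 fell (edgeR quasi-likelihood test, Benjamini-Hochberg adjusted p under 0.05), against 35.4% higher and 38.3% lower among all 2783 transcripts. With the transcripts of a gene summed, 9 of the 12 genes rose and 3 fell. The share of all genes called in this way was not counted, so the gene count has no background beside it. The median log2 fold change was 2.05 over the members and 0.09 over all transcripts. The count table kept only transcripts with at least 10 reads in each replicate of some group. Gsta2, Gsta4, Gstm6, Gstm7, Gstp1, Mgst1 and the 597-base Gstm1 transcript reached that in busulfan groups alone. Gstt4, both Gsto2 transcripts and the 810-base Gstm5 transcript reached it in vehicle groups alone. In both genotypes the direction of these members was thus in part set by the filter, and they carry the medians. The genes that rose were the alpha members Gsta2, Gsta3 and Gsta4, the mu members Gstm1, Gstm2, Gstm6 and Gstm7, the pi member Gstp1 and the microsomal Mgst1. Those that fell were the mu member Gstm5, the omega member Gsto2 and the theta member Gstt4.

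**Figure D1:**
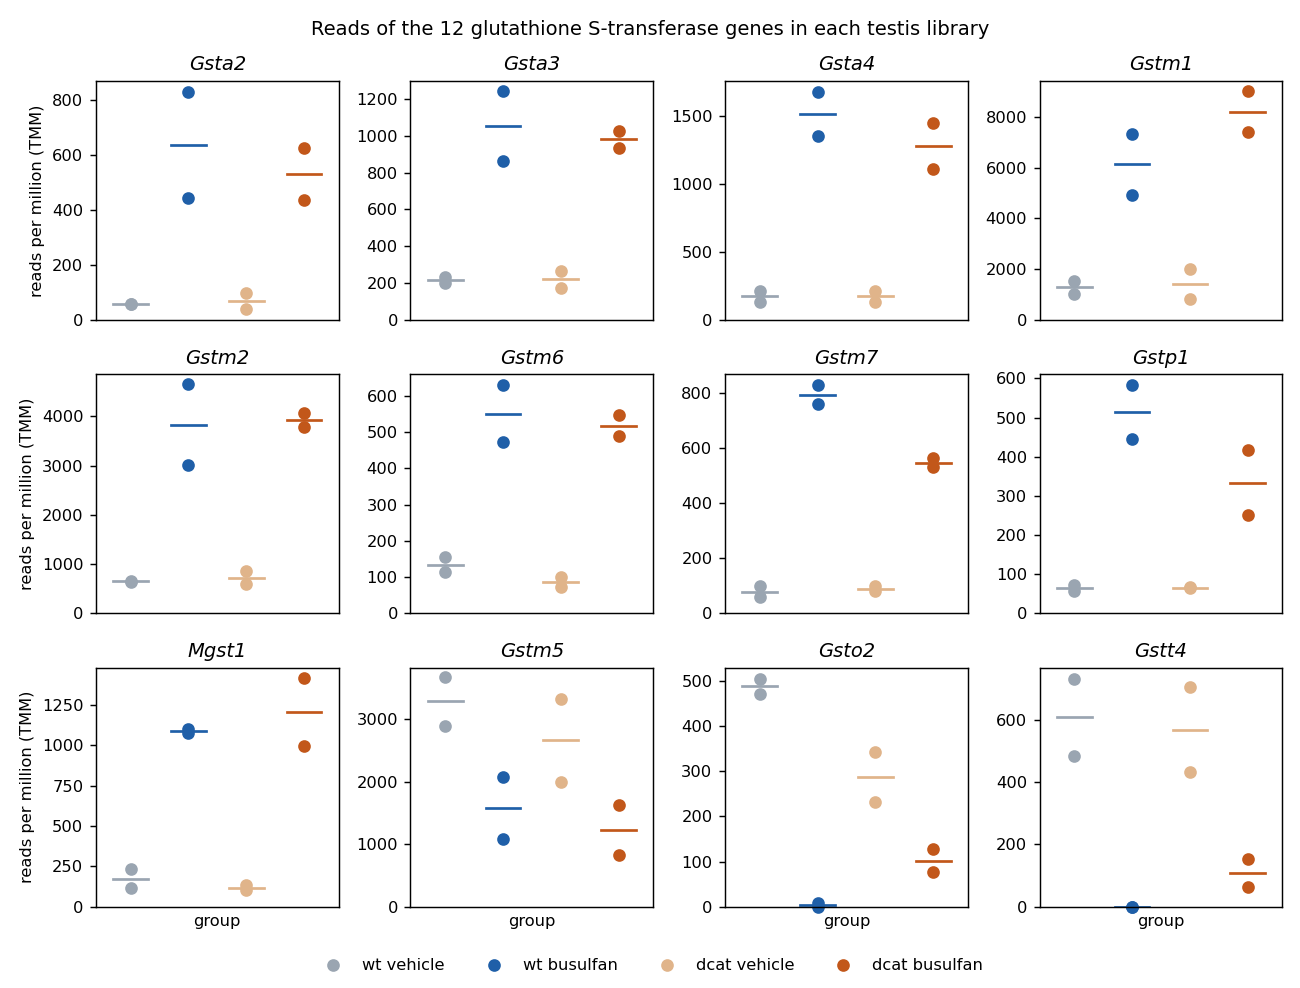
Reads scaled to library size (RPM, vertical axes, linear, from 0) of the 12 genes in each of the 8 libraries, transcripts summed; points are libraries, short lines the mean of 2, and the horizontal position is the group. In 9 panels the busulfan libraries stand above all vehicle libraries, and in Gstm5, Gsto2 and Gstt4 the busulfan libraries of a genotype stand below its vehicle libraries, with Gstt4 at 0 reads in both wt busulfan libraries. How many of all genes separate in this way was not counted.

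Gstt4, a theta class gene of 5 exons at chr10:75814943-75822543 (minus strand, GRCm38), was read in every group but wt busulfan. It had 25 and 51 reads after vehicle against 0 and 0 after busulfan in wt mice, and 13 and 88 against 4 and 14 in dcat mice. That is 607 ± 173 RPM (SD, n = 2) in wt vehicle and 567 ± 192 in dcat vehicle, against 0 and 108 ± 62.2 after busulfan. The vehicle libraries of the genotypes overlapped, and each genotype's busulfan libraries lay below its vehicle libraries. With a floor of 3 reads per library, Gstt4 was at least 18.0-fold lower after busulfan in wt (edgeR, adjusted p = 2.82e-07). In dcat the log2 fold change was -2.38 (SE 0.50, adjusted p = 5.73e-04).

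After busulfan, Gstt4 was at least 3.21-fold higher in dcat than in wt, taking the dcat mean against the floor (edgeR, adjusted p = 0.00982). The 2 dcat busulfan libraries stood at 64.2 and 152 RPM, and their spread is not in that bound. Gstt4 was 1 of 2 member transcripts higher in dcat in this comparison, where 5.39% of all transcripts were. Leaving out wt busulfan replicate 1, wt busulfan replicate 2 or dcat busulfan replicate 2 ended the call, with adjusted p of 0.115, 0.108 and 0.182. Late spermatid markers moved the same way, at 10583 RPM in wt busulfan and 30481 in dcat busulfan on average, as did round spermatid markers (6 of 10 read), at 140 and 684. Their part in the Gstt4 difference was not tested. The difference between the genotypes' responses had an adjusted p of 0.0500323 for the transcript, just above the threshold. With the replicate number, which marks the sequencing library shared by 4 mice, as a block it was 0.0117, in a fit where 4.38% of all transcripts were called higher. It also passed without dcat vehicle replicate 2 (adjusted p = 0.00891) or dcat busulfan replicate 1 (adjusted p = 0.00100). By transcript no member passed that test by edgeR, where 0.323% of all transcripts were higher. DESeq2 called 0 and gave 4 members no adjusted p. Before adjustment 3 of the 17 members had an edgeR p under 0.05, beside 451 of all 2783 transcripts. Summed by gene, Gstt4 and Gsto2 passed the test of this difference by edgeR, with adjusted p of 0.0387 and 0.0440. Over all genes, 1.43% were higher there.

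Gsto2, an omega class enzyme known for reducing dehydroascorbate, lies on chr19:47865545-47886324 (plus strand) and was read as 2 transcripts that share a last exon of 307 bases. Reads at such shared 3′ ends were given to 1 transcript by the aligner, so the split between isoforms is uncertain. Summed, Gsto2 had 26 and 33 reads after vehicle against 0 and 1 after busulfan in wt mice, and 7 and 43 against 8 and 7 in dcat mice. The libraries of vehicle and busulfan did not overlap within either genotype once scaled. As 1 read was left in wt busulfan, the ratio of summed wt vehicle to wt busulfan reads is given in place of a bound, at 88.6 (95% exact interval 15.3 to 3559, counting error only). In dcat the fall was -1.67 on the log2 scale (SE 0.51, edgeR over summed genes, adjusted p = 0.00652).

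The 1351-base Gsto2 transcript (ENSMUST00000056159) had 14 and 16 reads after vehicle against 0 and 1 after busulfan in wt mice, and 4 and 25 against 7 and 5 in dcat mice. It fell in wt by a ratio of 45.1 (exact interval 7.49 to 1839, adjusted p = 1.24e-05), and in dcat its log2 fold change of -1.19 did not pass (SE 0.56, adjusted p = 0.0653). It was the other transcript higher in dcat than in wt after busulfan, with a ratio of 14.2 (exact interval 2.10 to 607, edgeR adjusted p = 0.0473). That call was lost without any 1 of the 4 busulfan libraries, where adjusted p ran from 0.111 to 0.271, and with RLE size factors (0.0581), filterByExpr (0.0640) or only the 4 libraries compared (0.152). The 1277-base transcript (ENSMUST00000120645) had 12 and 17, 0 and 0, 3 and 18, and 1 and 2 reads in the same order of groups. It was at least 7.04-fold lower in wt busulfan (adjusted p = 3.27e-06) and lower in dcat busulfan by a ratio of 6.95 (exact interval 2.08 to 36.4, adjusted p = 0.00368). The dcat call was lost without dcat vehicle replicate 2 (adjusted p = 0.212).

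Gstm5, a mu class gene, is the first of the 5 mu genes read along chromosome 3, at chr3:107895821-107898686 (plus strand), and fell too. It was read as 4 transcripts that share between 125 and 236 bases of the last exon, and 2 of them are annotated as targets of nonsense-mediated decay. Summed, it had 190 and 202 reads after vehicle against 83 and 221 after busulfan in wt mice, and 60 and 417 against 52 and 150 in dcat mice. That is 3284 ± 560 RPM (SD, n = 2) and 1583 ± 703 in wt, and 2661 ± 947 and 1233 ± 562 in dcat. Once scaled, the treatments did not overlap within a genotype. The log2 fold change was -0.96 in wt (SE 0.35, edgeR over summed genes, adjusted p = 0.0157) and -1.17 in dcat (SE 0.36, adjusted p = 0.00711).

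By transcript the calls for Gstm5 differed, but its transcripts were not tested against each other. The split of reads between them is uncertain, as they share the last exon. The 945-base transcript (ENSMUST00000004134) had 123 and 105 reads after vehicle against 50 and 137 after busulfan in wt mice, and 32 and 211 against 34 and 89 in dcat mice. Its log2 fold change was -0.98 in wt (adjusted p = 0.0243) and -0.88 in dcat (adjusted p = 0.0535; 0.0413 with the replicate block). The wt call was lost without wt vehicle replicate 1 (-0.42, adjusted p = 0.368) or wt busulfan replicate 1 (-0.58, adjusted p = 0.267), and with filterByExpr (-0.72, adjusted p = 0.0689). In dcat it passed with RLE size factors (-1.12, adjusted p = 0.00810).

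The 1083-base Gstm5 transcript (ENSMUST00000170058), 1 of those annotated for decay, had 39 and 73, 14 and 56, 23 and 136, and 10 and 34 reads in the same order of groups. It fell by 1.30 on the log2 scale in wt (adjusted p = 0.0106) and by 1.79 in dcat (adjusted p = 0.00242). The wt call was lost without wt vehicle replicate 2 (-0.80, adjusted p = 0.176) or wt busulfan replicate 1 (-0.78, adjusted p = 0.183), and the dcat call without dcat vehicle replicate 2 (adjusted p = 0.0500219). The 810-base transcript (ENSMUST00000169365) had 11 and 14, 9 and 11, 5 and 44, and 4 and 11 reads. It fell in dcat by 1.60 (adjusted p = 0.0115), a call lost without dcat vehicle replicate 2 (-0.71, adjusted p = 0.526) or dcat busulfan replicate 1 (-1.29, adjusted p = 0.0695) and with DESeq2 (-1.77, adjusted p = 0.0593), and had a log2 fold change of -0.90 in wt (adjusted p = 0.133). The 869-base transcript (ENSMUST00000167523), at 17 and 10, 10 and 17, 0 and 26, and 4 and 16 reads, overlapped between treatments in both genotypes and passed neither test.

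Gstm1, a mu class enzyme known for detoxifying epoxides, rose in both genotypes. It is the last of the 5 mu genes read along chromosome 3, at chr3:108012255-108017973 (minus strand). Its 1289-base transcript (ENSMUST00000004140) had 71 and 65 reads after vehicle against 356 and 746 after busulfan in wt mice, and 52 and 94 against 410 and 793 in dcat mice. All busulfan libraries stood above all vehicle libraries. In wt it stood at 1152 ± 315 RPM after vehicle and 5841 ± 1672 after busulfan (SD, n = 2), and in dcat at 1238 ± 689 and 7601 ± 1439. The log2 fold change was 2.35 in wt (SE 0.38, edgeR, adjusted p = 8.96e-06) and 2.71 in dcat (SE 0.38, adjusted p = 1.77e-05).

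A 597-base Gstm1 transcript without an annotated coding sequence (ENSMUST00000198532) shares 518 bases of the last exon, so the split of reads between the Gstm1 transcripts is uncertain. It had 9 and 7, 21 and 32, 9 and 10, and 50 and 35 reads in the same order. Its log2 fold change was 1.11 in wt (adjusted p = 0.0863), and it rose by 2.03 in dcat (adjusted p = 0.00368), a call lost without dcat vehicle replicate 2 (adjusted p = 0.193) and with DESeq2 (adjusted p = 0.0520).

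The other mu members that rose, Gstm2, Gstm6 and Gstm7, lie between Gstm5 and Gstm1 on chromosome 3. Gstm2 had 34 and 45 reads after vehicle against 230 and 494 after busulfan in wt mice, and 26 and 74 against 236 and 375 in dcat mice. It rose by 2.56 on the log2 scale in wt (SE 0.35, adjusted p = 1.71e-06) and by 2.49 in dcat (SE 0.35, adjusted p = 1.77e-05). Gstm7 had 3 and 7, 58 and 88, 3 and 10, and 33 and 52 reads, and rose by 3.26 in wt (adjusted p = 3.83e-06) and 2.67 in dcat (adjusted p = 1.88e-04). Both were higher in every busulfan library than in every vehicle library. Gstm6 had 8 and 8, 36 and 67, 3 and 9, and 34 and 45 reads, and rose by 2.05 in wt (adjusted p = 4.15e-04) and 2.69 in dcat (adjusted p = 2.43e-04). Gstm6 likewise did not overlap between treatments. Between different members, transcripts of Gstm1 and Gstm2 were the most alike, with 79.0% identity over their aligned bases.

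Among the alpha members, Gsta4, whose enzyme conjugates the lipid peroxidation product 4-hydroxynonenal, had 7 and 15 reads after vehicle against 103 and 178 after busulfan in wt mice, and 4 and 27 against 90 and 102 in dcat mice. It rose by 3.07 on the log2 scale in wt (SE 0.42, adjusted p = 1.76e-06) and 2.72 in dcat (SE 0.42, adjusted p = 4.67e-05). Gsta3, a mouse enzyme known for conjugating aflatoxin epoxide, had 12 and 14, 66 and 132, 8 and 22, and 64 and 86 reads. It rose by 2.29 in wt (adjusted p = 3.69e-05) and 2.26 in dcat (adjusted p = 2.28e-04). For both genes the busulfan libraries stood above all vehicle libraries. Gsta2 had 3 and 4, 34 and 88, 3 and 5, and 39 and 40 reads, and its rise was the largest of the members in wt, 3.45 (SE 0.57, adjusted p = 1.35e-05), beside 3.25 in dcat (adjusted p = 1.67e-04). Its vehicle values rest on at most 5 reads per library.

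Gstp1, the pi class enzyme with a broad range of substrates, had 3 and 5 reads after vehicle against 34 and 62 after busulfan in wt mice, and 2 and 8 against 26 and 23 in dcat mice. It rose by 2.95 in wt (SE 0.55, adjusted p = 4.86e-05) and 2.31 in dcat (SE 0.57, adjusted p = 0.00164). Mgst1, a membrane-bound transferase that also reduces lipid hydroperoxides, had 12 and 8, 82 and 117, 4 and 13, and 62 and 130 reads. It rose by 2.69 in wt (adjusted p = 1.16e-05) and by 3.42 in dcat (adjusted p = 1.45e-05), the largest rise of the members in dcat. In neither gene did vehicle and busulfan libraries overlap.

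In dcat testes, 10 of the 17 transcripts rose and 4 fell, against 31.3% higher and 31.4% lower among all transcripts, and the median log2 fold change was 2.26 beside 0.14. By gene, 9 rose and 3 fell, in the same directions as in wt for each gene, again without a share over all genes. Without dcat vehicle replicate 2, the deepest library, the number of transcripts called fell from 14 to 10, and the 4 lost were those named above. The wt and dcat comparisons share no mouse, but both multiplexed libraries, the scaling and the estimate of spread are common to them. The calls of the 9 transcripts that rose in wt were kept in both genotypes under each alternative tried. Every alternative started from the same filtered count table, so none of them tests what the filter set.

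**Figure D2:**
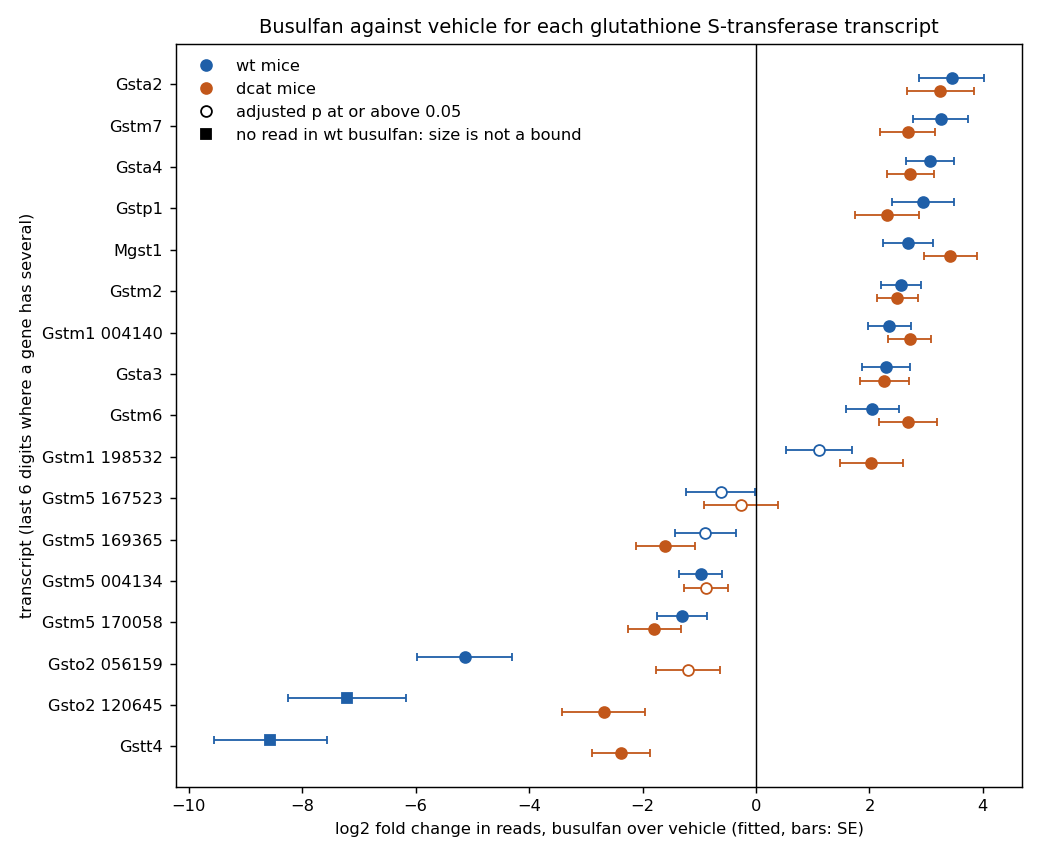
Fitted log2 fold change in reads (horizontal axis, with SE) of each of the 17 transcripts, busulfan over vehicle, in wt and dcat mice; open symbols did not pass the adjusted p of 0.05, and squares have no read in wt busulfan, where the fitted size depends on the prior count. The 9 transcripts at the top rose in both genotypes, from 2.05 upwards, and Gstt4 and both Gsto2 transcripts lie further from 0 in wt than in dcat.

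Apart from Gstt4 and Gsto2, no member passed the test between genotypes. After vehicle, 0 of 17 transcripts differed between dcat and wt by edgeR and 0 by DESeq2, with 0 at an unadjusted p under 0.05, and the log2 differences ran from -0.83 to 0.50. Over all 2783 transcripts 0% were called, so this count says nothing particular about the family. After busulfan, the 14 transcripts other than Gstt4 and those of Gsto2 had log2 differences between -0.66 (Gstp1, SE 0.41, adjusted p = 0.415) and 1.00 (the 597-base Gstm1 transcript, SE 0.47, adjusted p = 0.231). Gstm1's 1289-base transcript differed by 0.38 (SE 0.34, adjusted p = 0.622).

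Since 1 read is 1 molecule, the reads also give the make-up of the family. Mu reads were 75.1% ± 4.37 of member reads in wt vehicle and 72.6% ± 2.09 in wt busulfan (SD, n = 2), and 76.9% ± 2.82 and 75.9% ± 3.35 in dcat. Within this class Gstm5 fell while Gstm1 and Gstm2 rose, as the reads above show. Alpha reads were 6.29% ± 1.17 and 18.1% ± 0.371 in wt, and 7.16% ± 0.811 and 14.9% ± 3.61 in dcat. Theta reads, all from Gstt4, were 8.60% ± 3.39 and 0 in wt, where 0 reads allow a share of up to 0.272% and 0.135% in the libraries, and 8.72% ± 2.85 and 0.558% ± 0.279 in dcat. Omega reads were 6.78% ± 0.467 and 0.0225% ± 0.0318 in wt, and 4.43% ± 1.16 and 0.550% ± 0.243 in dcat. Microsomal reads, all from Mgst1, were 2.35% ± 0.886 and 6.35% ± 1.54 in wt, and 1.82% ± 0.337 and 6.31% ± 1.01 in dcat. Pi reads, all from Gstp1, were 0.911% ± 0.236 and 2.93% ± 0.210 in wt, and 1.00% ± 0.0391 and 1.79% ± 0.781 in dcat. In both genotypes the libraries of vehicle and busulfan overlapped for the mu share and for no other class. With 2 libraries on each side, this separation was not tested.

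**Figure D3:**
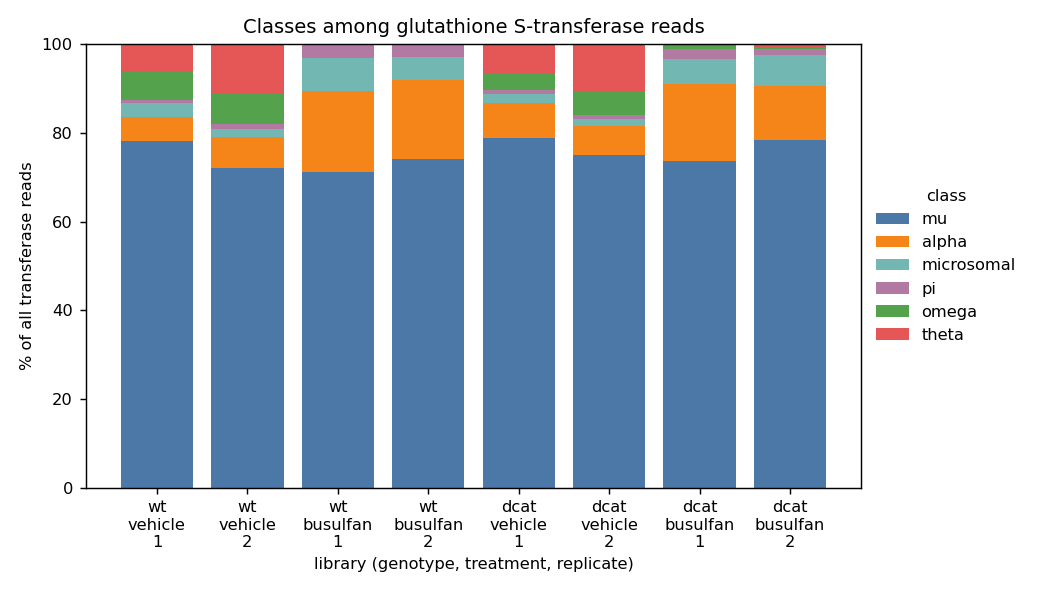
Share of all member reads (vertical axis, percent) that fell in each class, for each of the 8 libraries named under the bars; each bar sums to 100%. Mu reads fill most of each bar, theta and omega reads are seen at the top of the 4 vehicle bars and are nearly absent after busulfan, and alpha reads are wider after busulfan.

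Transcripts outside the family were ranked by likeness across the 8 libraries. The one most like Gstt4 was Trim36 (Pearson r = 0.997 of log2(RPM + 1)), out of 1550 transcripts compared. Next came Ddi1 (0.997), the protamine gene Prm2 (0.995), the chaperone gene Dnajb8 (0.995) and the fructose carrier gene Slc2a5 (0.995). Trim36, Ddi1 and Slc2a5, like Gstt4, had 0 reads in both wt busulfan libraries. Prm2, packed around sperm DNA, had 149 and 155 reads there. The transcripts most like Gstm1 outside the family were those of Hmgn2 (r = 0.996), Tmbim6 (0.992), Gsn (0.991), Marcksl1 (0.991) and Chchd10 (0.983). These r values describe 8 points that form treatment groups and share library depth, and bear no test.

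In wt vehicle, the 5 member transcripts that fell after busulfan had mean poly(A) tails of 147 to 170 nt. Of the 9 that rose, 3 had at least 10 reads in each wt vehicle library, with mean tails of 89.0 to 111 nt. The other 6 were too low in vehicle for that minimum and averaged 94.2 to 146 nt on 3 to 15 reads per library, so that the ranges nearly met. Over all transcripts above the same minimum, those that fell had a median of 153 nt (n = 1024, from 83.9 to 291 nt) and those that rose one of 120 nt (n = 124, from 54.2 to 204 nt). Gstt4 tails averaged 155 and 155 nt in wt vehicle and 168 and 162 nt in dcat vehicle, 10.1 nt apart (SE 9.64, limma, adjusted p = 0.989). In dcat busulfan they averaged 102 nt in the library with 4 reads and 147 nt in the one with 14. These last values rest on too few reads for the test, which needed 10 in each library.

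Gstm5 tails shortened after busulfan in wt. In the 945-base transcript they averaged 173 and 167 nt in wt vehicle and 135 and 140 nt in wt busulfan, and 154 and 168 nt and 119 and 139 nt in dcat. The libraries did not overlap between treatments. The change was -32.7 nt in wt (SE 6.21, limma, adjusted p = 0.00216) and -31.8 nt in dcat (SE 10.2, adjusted p = 0.0541; 0.00472 with the replicate block). Reads with tails of 30 to 120 nt were 11.4% (95% Wilson interval 6.90 to 18.2) and 18.1% (11.9 to 26.5) of its reads in wt vehicle, and 26.0% (15.9 to 39.6) and 32.8% (25.5 to 41.1) in wt busulfan. The 1083-base transcript went from 178 and 158 nt to 146 and 139 nt in wt, by -26.1 nt (SE 9.38, adjusted p = 0.0445), and from 176 and 161 nt to 96.8 and 157 nt in dcat, by -41.6 nt (SE 17.6, adjusted p = 0.118; 0.00360 with the block). The wt call of the 1083-base transcript was lost without wt vehicle replicate 1 (-16.1 nt, adjusted p = 0.209) or wt busulfan replicate 2 (-22.6 nt, adjusted p = 0.168), and with medians, log2 lengths or no trend, where adjusted p ran from 0.0810 to 0.167. The methods' t-test passed its own unadjusted threshold in wt for the 945-base transcript alone of the pair, and neither passed after Benjamini-Hochberg, at adjusted p of 0.106 and 0.280. Both Gstm5 transcripts passed in dcat without dcat busulfan replicate 2 (-42.1 nt, adjusted p = 0.0105, and -71.6 nt, adjusted p = 6.51e-04), where the lone library left is assumed to vary like the other groups.

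These were the 2 member transcripts with shorter tails among 6 tested in wt, where 39.1% of all transcripts tested had shorter tails. At its unadjusted threshold, the methods' t-test passed 1 of the 6, beside 32.3% of all transcripts. In dcat, 0 of 4 passed by limma, where 19.5% of all transcripts tested had shorter tails. Before adjustment 2 of the 4 had a p under 0.05, beside 163 of all 441 transcripts tested. The methods' t-test passed 0 of the 4 with or without adjustment, beside 20.2% of all transcripts at its unadjusted threshold. Over all transcripts tested, the median change came to -19.9 nt for wt and -17.2 nt for dcat. Gstm1 tails lay close together in all groups. They averaged 114 and 107 nt after vehicle against 110 and 113 nt after busulfan in wt mice, and 102 and 112 nt against 116 and 111 nt in dcat mice. The libraries of all groups overlapped, and the change was 0.86 nt in wt (SE 4.17, adjusted p = 0.900) and 6.11 nt in dcat (SE 4.95, adjusted p = 0.400; 11.02 nt, adjusted p = 0.0461, without dcat vehicle replicate 2).

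Gstm2 tails averaged 91.0 and 105 nt in wt vehicle and 105 and 106 nt in wt busulfan, a change of 7.55 nt (SE 5.52, adjusted p = 0.307), and changed by -1.99 nt in dcat (SE 6.39, adjusted p = 0.828). Gsta3 tails averaged 74.0 and 104 nt in wt vehicle and 104 and 107 nt in wt busulfan, a change of 16.4 nt (SE 9.89, adjusted p = 0.215). Neither passed, though both did in wt without wt vehicle replicate 2, at 14.7 nt (adjusted p = 0.0483) and 31.3 nt (adjusted p = 0.0239). Relative to the median transcript of each library, the 4 wt libraries gave 24.1 nt for Gstm1 (adjusted p = 0.00369), 30.8 nt for Gstm2 (adjusted p = 0.00251), 39.6 nt for Gsta3 (adjusted p = 0.0176) and -9.51 nt for the 945-base Gstm5 transcript (adjusted p = 0.308). Over all transcripts, this centring gave 9.68% longer and 7.02% shorter, beside 0.569% and 39.1% without it. In dcat, centring gave 1 of 4 members longer, Gstm1 by 28.9 nt (adjusted p = 0.00486), beside 8.16% of all transcripts longer and 4.99% shorter. Which members count as changed in tail length thus depends on whether the general shortening is taken out.

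**Figure D4:**
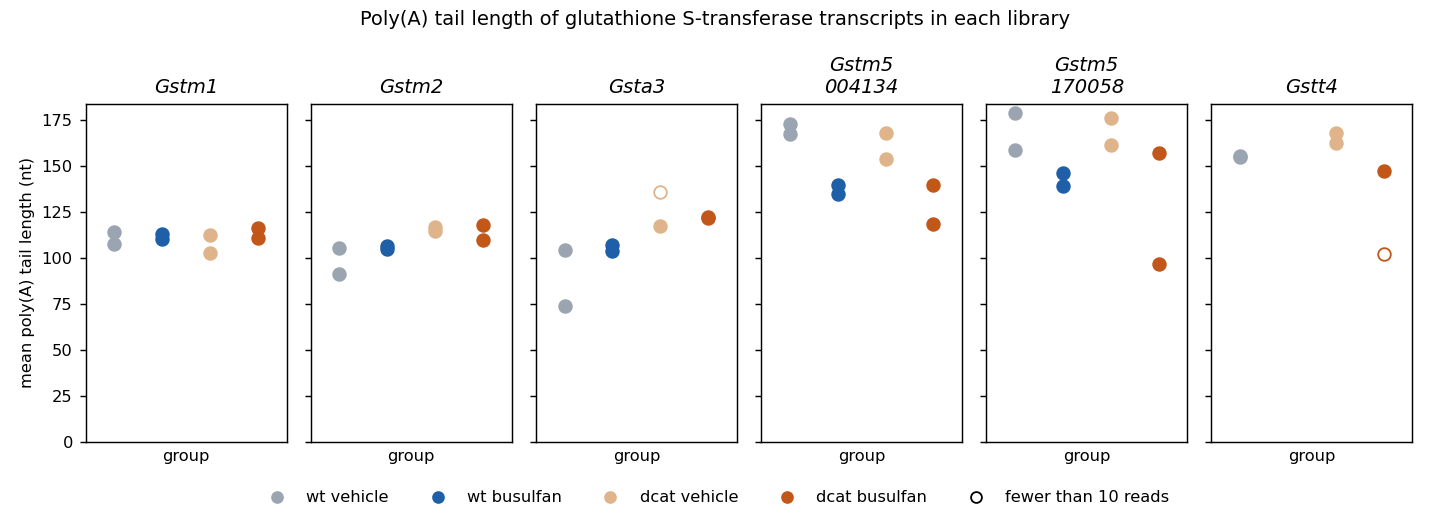
Mean poly(A) tail length in nucleotides (vertical axis, from 0) of 6 transcripts in each library; points are libraries, open where fewer than 10 reads were averaged, and the horizontal position is the group. Gstm1 stays between 102 and 116 nt in all groups, both Gstm5 transcripts lie lower after busulfan than after vehicle within each genotype, and Gstt4 has no point in wt busulfan.

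Between genotypes, tail length of no member passed the test. After vehicle, 5 were tested, with 0 called by limma, where 0.139% of all transcripts were, and 0 at an unadjusted p under 0.05. The methods' t-test passed 0 of the 5 with or without adjustment, beside 3.89% of all transcripts at its unadjusted threshold. After busulfan, 12 were tested, with 0 called by limma, where 1.35% of all transcripts were. Before adjustment 98 of all 1188 transcripts had a p under 0.05, among them 3 of the 12 members. Those were Gsta2 (20.9 nt longer in dcat, SE 8.93), Gsta3 (16.3 nt, SE 6.45) and Gstm6 (20.0 nt, SE 8.86), each with an adjusted p of 0.560. Their libraries did not overlap between genotypes, nor did those of Gstm2 (8.09 nt), Mgst1 (9.87 nt) and Gstp1 (-13.2 nt). How often this held over all transcripts was not counted. The methods' t-test passed 3 of the 12 at its unadjusted threshold (Gsta3, Gstm6 and Gstp1), beside 6.82% of all transcripts, and 0 after Benjamini-Hochberg. For the interaction, 0 of 4 passed by limma, with 0 at an unadjusted p under 0.05, where 0.885% of all transcripts passed. Counts of 0 this close to the background say nothing particular about the family.

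Other genes of glutathione use were read from a list of 47, of which 13 genes with 19 transcripts were in the count table. In wt, 11 of these transcripts rose, 7 fell and 1 did not pass, with a median log2 fold change of 1.77 beside 0.09 over all transcripts. That is 57.9% higher and 36.8% lower, beside 35.4% and 38.3% of all transcripts, so the share that fell was near the background. In dcat 10 rose, 4 fell and 5 did not pass (52.6% higher and 21.1% lower, beside 31.3% and 31.4%), with a median of 1.35 beside 0.14. The dcat counts were 3 higher and 2 lower without dcat vehicle replicate 2, 5 and 3 with DESeq2, and 8 and 7 with RLE size factors. Those that fell in wt were the 3 transcripts of Gpx4, the lipid hydroperoxide peroxidase that also forms part of the sperm mitochondrial sheath, both of the glyoxalase Hagh, and the glutaredoxins Glrx2 and Glrx3. Those that rose included Gpx1, the cytosolic peroxidase, with 9 and 3 reads in wt vehicle and 37 and 73 in wt busulfan (log2 2.53, adjusted p = 1.88e-04). Abcc1, which exports glutathione conjugates, rose by 2.18 in wt (adjusted p = 0.00634), from 1 and 4 to 13 and 22 reads. Me1, Idh1 and Pgd, which supply NADPH, Slc3a2, part of the cystine carrier, Glrx5 and the esterase Esd also rose. Of the transcripts that rose in wt, all but the more read Me1 transcript reached 10 reads in each replicate in busulfan groups alone. Of those that fell, both Hagh transcripts, Glrx2 and the least read Gpx4 transcript reached it in vehicle groups alone. Their direction was thus in part set by the filter, and the counts and medians above rest largely on them. Prdx6, with 20 and 19 reads in wt vehicle and 39 and 69 in wt busulfan, did not pass (0.84, adjusted p = 0.0632). Between genotypes, 0 of the 19 passed by edgeR or DESeq2 after vehicle, with 0 at an unadjusted p under 0.05. After busulfan 0 passed by either tool, and DESeq2 gave 8 of the 19 no adjusted p. By edgeR 3 had an unadjusted p under 0.05, beside 564 of all 2783 transcripts.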

How the data were processed

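RNA of whole testes from 8 mice was sequenced with the direct RNA kit on R9 pores, as 2 multiplexed libraries that each held 1 mouse of every group. The authors called bases (Guppy), sorted barcodes (Deeplexicon), mapped reads with Minimap2 to the transcripts of GENCODE release 17 (GRCm38) and measured tails with Nanopolish. The Minimap2 version is 2.20-r1061 per the submitters' processing notes, while the study's methods name a later one. The deposited count table holds raw read counts, limited to transcripts that reached 10 reads in each replicate of some group. The deposited tail table holds 1 signal-derived tail length in nt for each of 621202 reads, and counts equalled the reads with a tail for every transcript and library. The authors' DESeq2 fold changes and adjusted p-values between genotypes were not used.

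Counts were compared here with edgeR 4.0.16 (R 4.3.3; TMM, quasi-likelihood test, all 8 libraries as 4 groups). Mean tails were compared with limma 3.58.1 (trend on log2 mean reads) for transcripts with at least 10 reads in each library of a contrast. Tests were two-sided and adjusted by Benjamini-Hochberg over all transcripts tested, at a threshold of 0.05. RPM values are reads over the TMM-scaled library size. Scripts were tested on simulated data. Intervals and floors cover counting error only. A fold bound sets the mean of the higher group against the floor, without allowance for error in that mean. Each mouse gave 1 library. The p-values of edgeR and limma rest on the spread between the 2 mice of a group. That estimate is shared over transcripts and, for reads, over the 4 groups.

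All members are named. Values in every library are given for gstt4, gstm1 and members called or with at least 100 reads. Likeness took the 5 symbols outside the family with the highest Pearson correlation among transcripts with at least 100 reads. The members, the marker and glutathione lists and the tests were chosen with earlier results of these data known.

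The replicate number pairs mice because, per the labels, it marks the shared multiplexed library (extract protocol). Deviations of same-numbered libraries from their group means correlated at -0.140 to 0.248 for reads (1594 transcripts) and 0.00607 to 0.0618 for tails (339 transcripts). Alternatives were RLE size factors, filterByExpr, DESeq2 1.42.0, the replicate block, only the libraries of a contrast, sums per gene, each library left out, and for tails medians, log2 lengths, centred libraries, no trend, weights, a minimum of 20 reads and the methods' t-test.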

Additional observations from a re-analysis of the deposited data

Results flagged for a closer look

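Gstt4 and Gsto2, with the transcripts of a gene summed, responded to busulfan differently in wt and dcat testes by edgeR's interaction term. The adjusted p was 0.0386939 for Gstt4 and 0.0440169 for Gsto2. Gstt4 went from 25 and 51 reads to 0 and 0 in wt and from 13 and 88 to 4 and 14 in dcat. Gsto2 went from 26 and 33 reads to 0 and 1 in wt and from 7 and 43 to 8 and 7 in dcat. By transcript, the adjusted p was 0.0500323 for Gstt4 and 0.0636 for the 1351-base Gsto2 transcript. Late spermatid markers, which were higher in dcat busulfan (21002 and 39960 RPM) than in wt busulfan (7721 and 13444), moved with both genes, and their part in these differences was not tested.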

How the results depend on the processing

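Of 393 alternative values for reads of single transcripts, 350 kept their direction and side of the threshold, 22 lost a call, 18 gained one and 3 changed sign. For tails these were 96, 9, 13 and 5 of 123. The count of members called in dcat against wt after busulfan went from 2 to 1 with RLE size factors, filterByExpr, DESeq2 (no adjusted p for the 1351-base Gsto2 transcript) and only the 4 libraries of the contrast. For the interaction it went from 0 to 1 with RLE, filterByExpr and the replicate block, and to 2 by gene. For tails in wt it went from 2 to 1 with medians, log2 lengths, no trend, a minimum of 20 reads and by gene, and to 0 with the methods' t-test after Benjamini-Hochberg (1 at its own unadjusted threshold). Centred libraries gave 3, all longer, in place of 2 shorter. For tails in dcat it went from 0 to 1 with centred libraries, weights and by gene, and to 2 with the replicate block. The block changed no other count of calls by over 1.5 times. RLE size factors moved the all-transcript median (log2) from 0.09 to -0.03 in wt, 0.14 to -0.08 in dcat and 0.20 to 0.06 between genotypes after busulfan. Leaving out 1 library each gave 12 to 14 calls for reads in wt, 10 to 16 in dcat, 0 to 1 for dcat against wt after busulfan and for the interaction, 1 to 4 for tails in wt and 0 to 2 in dcat, and 0 elsewhere. The sign turned for the 869-base Gstm5 transcript's reads, to 0.24 without wt vehicle replicate 1, and in dcat to 6.15 without dcat vehicle replicate 2 and 0.18 without dcat busulfan replicate 1, in ranges of -0.89 to 0.24 and -1.23 to 6.15. It turned for Gstm1 tails in wt, to -2.31 nt without wt vehicle replicate 2 and -0.54 nt without wt busulfan replicate 2 (range up to 4.03 nt). It turned for the 869-base Gstm5 transcript's tails in wt, to 6.19 nt with centred libraries. It turned for Gstm2 tails in dcat, to 20.8 nt with centred libraries and 2.19 nt without dcat busulfan replicate 2 (range from -6.17 nt). The cause was not tested. With 2 mice per group and the shallow dcat vehicle replicate 1, members with under 10 reads have wide errors and no tail test.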
